A study of Homo sapiens with 7 samples.

Results

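The 10 human genes described here respond to low oxygen and were followed through a time course of a kinase inhibitor in embryonic stem cells. They are DDIT4, STC1, MIR210HG, SLC16A3, BNIP3, BNIP3L, PDK1, ADM, VEGFA and ANKRD37. They were picked by name, with their levels in these same libraries already known, for a fall followed by a rise. All 10 were among the 19775 genes of the deposited table and all 10 had a mean normalised read count of at least 10, the minimum for testing. The cells were wild-type H1, a widely used human embryonic stem cell line, grown in E8, a defined medium with insulin, FGF2 and TGFβ. The untreated group (2 samples) had been in E8 for 48 h. The treated groups had XMD892, an inhibitor that the title of the study links to the kinase ERK5, at 1 µM in the same medium for 12 h (1 sample), 24 h (2 samples) or 48 h (2 samples). Untreated cells were sampled only at 48 h, so at 12 and 24 h the inhibitor and the time in culture cannot be told apart. The same holds for every change between 24 and 48 h of XMD892, since no untreated cells were sampled at 24 h. The deposited table has 2 more columns named for 12 h that match no labelled sample; they were not analysed here, so every 12 h value is that of 1 library.

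Cells sense oxygen through the HIF transcription factors, each an alpha subunit (HIF-1α, from HIF1A, or HIF-2α, from EPAS1) paired with ARNT. When oxygen is plentiful, prolyl hydroxylases of the EGLN family mark the alpha subunit for destruction by the VHL ubiquitin ligase. When oxygen is scarce the pair binds short DNA motifs and raises genes of glucose uptake and lactate export, mitochondrial clearance, blood vessel growth and growth restraint, among them the 10 described here. The control of HIF is largely on protein stability, which RNA levels do not show, and most of these genes also answer to other signals.

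The listed genes carried between 18528689 and 24148186 reads per library. Normalised read counts, which the authors had divided by 1 factor per library, were compared on a log2 scale after adding 1, with limma fitted to all 7 libraries and 16351 genes. The labels do not say whether replicates were separate cultures, so the spread may be technical. Between the E8 replicates the log2 difference of a gene went with the GC content of its transcript (Spearman's rho -0.64 over 16023 genes, a description since genes are not replicates). All 10 markers of pluripotent stem cells were present, summing to between 193599 and 227915 normalised counts in every library. Some of them were lower under XMD892: limma called 1 lower at 12 h (NANOG), 3 at 24 h (NANOG, TDGF1 and SALL4) and 2 at 48 h (NANOG and TDGF1). These are 10%, 30% and 20%, beside 4.89%, 7.56% and 6.45% of all tested genes. In alternative analyses the 24 h call of SALL4 was lost in 7, among them with only the groups compared (limma adjusted p = 0.073). Those of NANOG and TDGF1 at 24 h were each lost in 1, without 24 h replicate 1. Of genes listed as markers of other cells, the 4 fibroblast markers with a row summed to 6870 to 8591. Most of that was THY1 (4966 and 5811 in E8), so the sum is not read as a sign of fibroblasts. The 5 endothelial markers with a row summed to 133 to 270, with 215 to 270 in E8 and 133 to 153 at 48 h. The 5 cardiac and mesoderm markers with a row summed to 82.6 to 100 in E8 and 37.7 to 47.5 at 48 h. The part of these shifts in the results below was not tested. In bulk RNA, fewer cells with a transcript and less of it per cell cannot be told apart.

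The name given to the group, a fall and then a rise, fitted 7 of the 10 genes. In DDIT4, STC1, BNIP3, SLC16A3, MIR210HG, PDK1 and VEGFA both 24 h libraries lay below both E8 libraries and both 48 h libraries above both 24 h libraries, a pattern held by 11.3% of all tested genes. In 5 of them (DDIT4, STC1, BNIP3, SLC16A3 and MIR210HG) the 48 h libraries also lay above E8, a pattern held by 1.49% of all tested genes. ADM went the other way, high at 12 and 24 h and back near its E8 level at 48 h. ANKRD37 had no fall, and BNIP3L was below E8 at 12 h only. Since the genes were chosen on these values, their levels are a description. Calls given for them further on are not a test of the pattern.

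**Figure D1:**
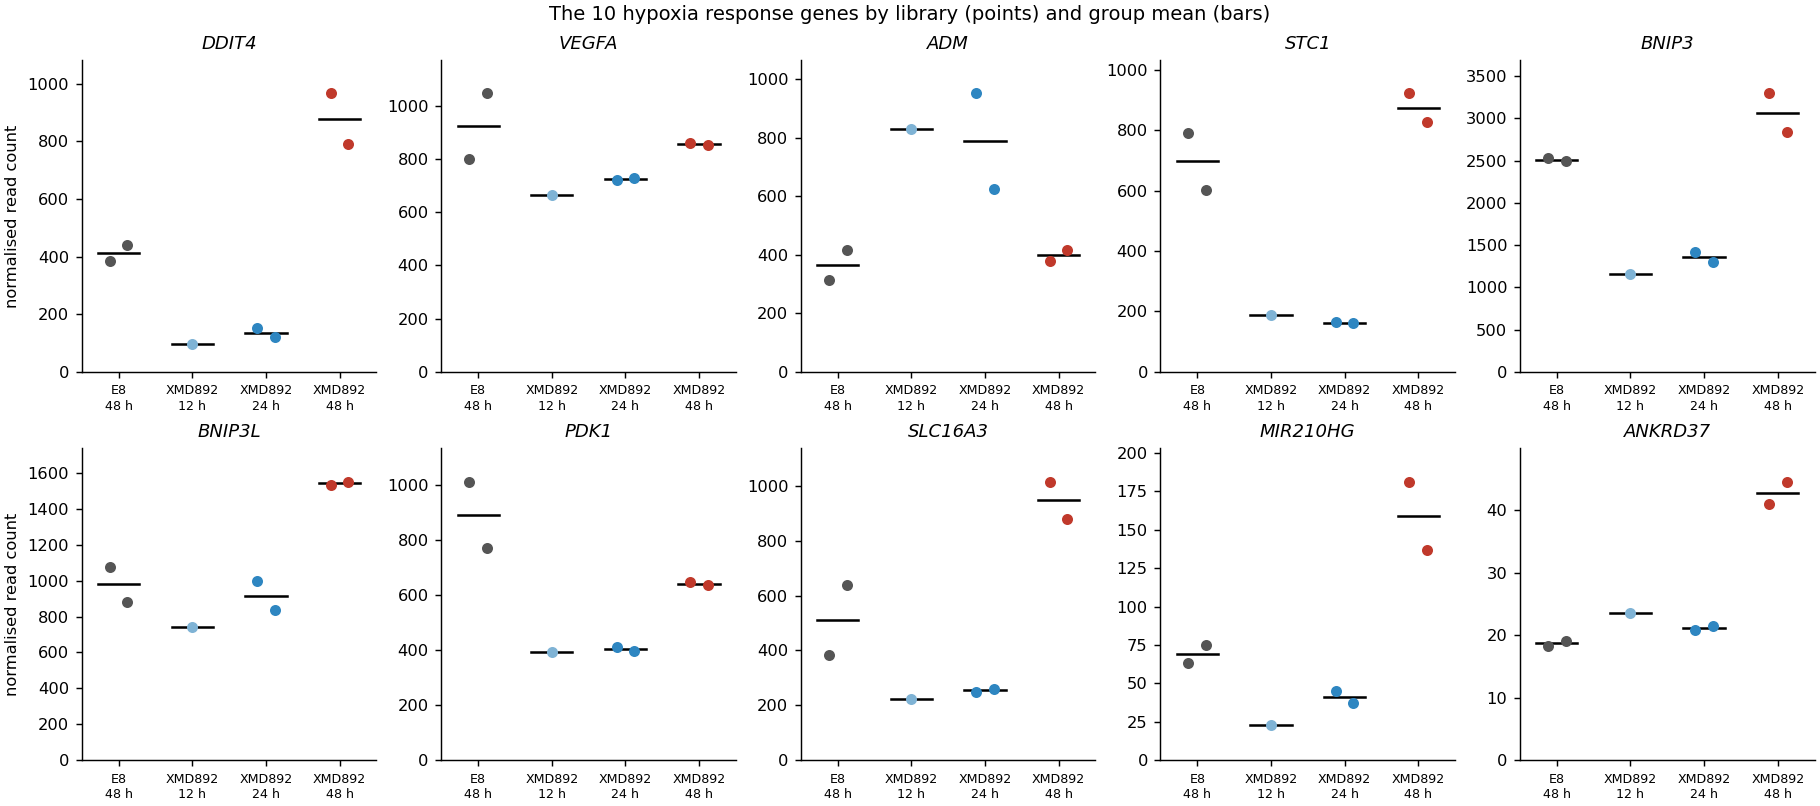
Normalised read count (linear axis from 0) of each of the 10 genes in E8 and after 12, 24 and 48 h of XMD892; points are libraries, bars are group means, and 12 h has 1 library. DDIT4 stands at 411 in E8, 96.6 at 12 h, 136 at 24 h and 878 at 48 h, whereas ADM runs from 366 to 831, 788 and 399.

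DDIT4 encodes REDD1, which restrains the growth kinase mTORC1 through the TSC complex. Its counts were 383 and 439 in E8, 96.6 at 12 h, 151 and 121 at 24 h, then 966 and 789 at 48 h. It was 4.25-fold below E8 at 12 h and 3.03-fold below at 24 h, then 6.46-fold above its 24 h level at 48 h, the widest swing of the 10 genes. No group of DDIT4 libraries overlapped another. Its log2 difference from E8 was -1.60 ± 0.19 (SE) at 24 h and 1.09 ± 0.19 at 48 h. DDIT4 lies on chromosome 10 at 72273920 to 72276036 (GRCh38), and 41.2% of its exon bases are shared with the antisense DDIT4-AS1; whether reads were counted by strand is not given in the sources used here.

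HIF binds the core ACGTG or GCGTG. The promoter of DDIT4 is shown because this gene swung most, that of BNIP3 because its profile was closest to the median of the 10, and that of MIR210HG as the promoter of the noncoding member. Each is 5′ to 3′ on the strand of its gene, from the RefSeq window (GRCh38.p14), ending before the first annotated start in RefSeq and GENCODE 29. Capitals mark the cores on either strand (CACGT and CACGC are the cores read from the other strand, and CACGTG holds the core on both strands).
DDIT4 (plus strand, chr10:72273674-72273919): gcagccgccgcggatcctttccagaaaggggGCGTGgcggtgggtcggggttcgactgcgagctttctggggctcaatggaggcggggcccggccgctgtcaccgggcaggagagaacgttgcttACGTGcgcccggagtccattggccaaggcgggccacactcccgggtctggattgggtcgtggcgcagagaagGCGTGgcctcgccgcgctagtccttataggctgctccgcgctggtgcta
BNIP3 (minus strand, chr10:131982014-131982173): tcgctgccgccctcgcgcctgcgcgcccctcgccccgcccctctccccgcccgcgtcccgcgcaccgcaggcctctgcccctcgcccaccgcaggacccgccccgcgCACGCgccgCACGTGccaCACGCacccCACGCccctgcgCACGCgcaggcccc
MIR210HG (minus strand, chr11:568458-568707): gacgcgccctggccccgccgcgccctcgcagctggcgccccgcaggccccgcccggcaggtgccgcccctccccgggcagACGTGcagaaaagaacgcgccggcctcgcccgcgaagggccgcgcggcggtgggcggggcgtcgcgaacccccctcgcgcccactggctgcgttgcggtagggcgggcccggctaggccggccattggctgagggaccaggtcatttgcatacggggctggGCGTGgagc

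In these stretches DDIT4 held 3 matches, BNIP3 6 in a cluster, 5 of them on the other strand, and MIR210HG 2. Windows from 250 bases before to 50 after a start were at hand for 7 of the 10 genes (DDIT4, BNIP3, MIR210HG, PDK1, ANKRD37, ADM and SLC16A3), with 12 starts in all. Of these 12 windows, 9 held at least 1 core, as did 48.4% of 35116 such windows of all genes. ACGTG alone was in 21.4% and GCGTG alone in 36.5% of all windows. ADM held 1 GCGTG core, and the first starts of PDK1 and SLC16A3 held none in these letters. A match is a stretch of letters and not a measured binding site.

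**Figure D2:**
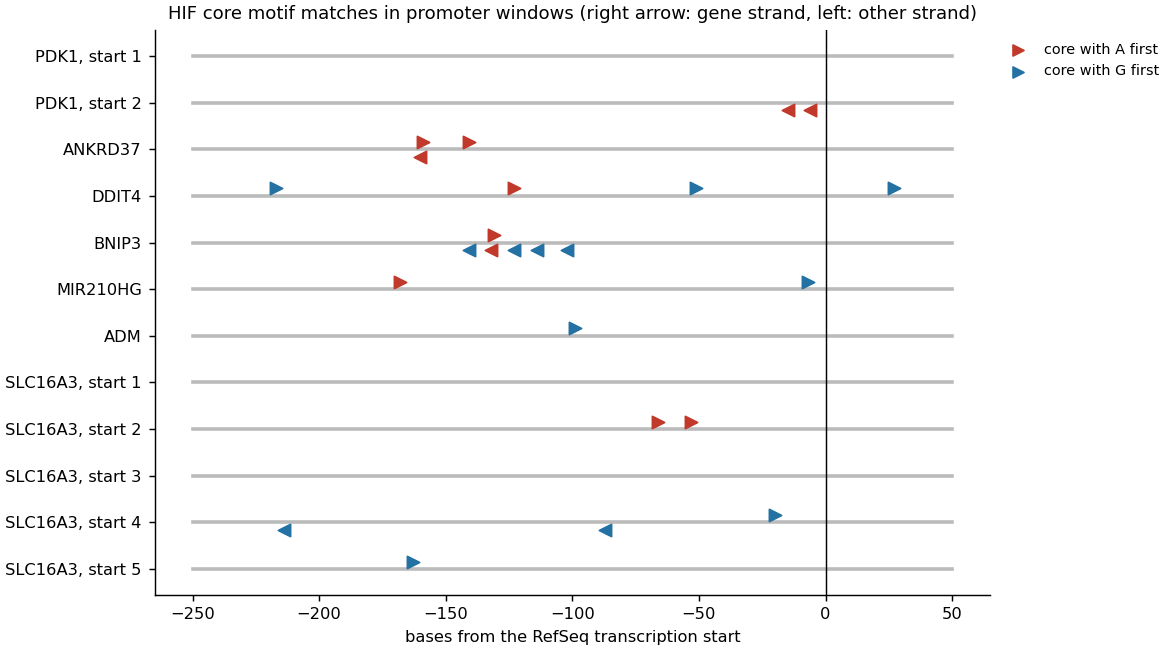
Positions of the HIF core in the 12 promoter windows, in bases from the RefSeq start; colours give the core with A or G first, and right and left arrows the strand of the gene and the other strand. BNIP3 carries 6 matches and ADM 1.

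BNIP3 and BNIP3L (NIX) are related proteins of the outer mitochondrial membrane that hand mitochondria to autophagy. BNIP3 had 2527 and 2494 counts in E8, 1157 at 12 h, 1420 and 1302 at 24 h, then 3294 and 2836 at 48 h. The 12 h and 24 h libraries held about the same low level, 46.1% and 54.2% of E8, and 48 h ended 1.22-fold above E8. BNIP3L had 1078 and 881 counts in E8, 740 at 12 h, 997 and 836 at 24 h, then 1537 and 1554 at 48 h. Its 24 h libraries overlapped E8, so of the pair only BNIP3 was still low at 24 h, at log2 differences of -0.88 ± 0.15 and -0.09 ± 0.16 (SE); the difference between the 2 genes was not tested. At 48 h BNIP3L stood 1.58-fold above E8 with no overlap. After GC correction of every library, the 24 h difference of BNIP3L was 0.08, and the 48 h difference of BNIP3, 0.28, was 0.18 without 48 h replicate 1. Per kilobase of merged exons the level of BNIP3 in E8 was 471 and that of BNIP3L 227, the highest 2 of the 10 genes.

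SLC16A3 (MCT4) exports lactate from cells that live by glycolysis. Its counts were 382 and 639 in E8, 221 at 12 h, 249 and 260 at 24 h, then 1016 and 881 at 48 h. All 12 and 24 h libraries lay below E8 and both 48 h libraries above it, 3.73-fold over 24 h. The E8 replicates stood 1.67-fold apart, the widest ratio among the 10 genes, and the longest SLC16A3 transcript had 62.7% GC, the highest of the 10. Its log2 difference from E8 at 48 h, 0.94, was 0.57 without E8 replicate 1 and 1.31 without E8 replicate 2, and at 24 h, -0.95, it was -1.32 and -0.58.

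PDK1 phosphorylates pyruvate dehydrogenase and so keeps pyruvate out of the mitochondrial citrate cycle. Its counts were 1013 and 770 in E8, 394 at 12 h, 409 and 397 at 24 h, then 646 and 637 at 48 h. The gene lay 2.26-fold below E8 at 12 h and 2.21-fold below at 24 h, and both 48 h libraries were still below E8, at 71.9% of its mean. The log2 difference was -1.13 ± 0.17 (SE) at 24 h and -0.46 ± 0.17 at 48 h, the latter -0.26 without E8 replicate 1.

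STC1, VEGFA and ADM are secreted. STC1, stanniocalcin-1, is a glycoprotein hormone tied to calcium and phosphate handling. It had 792 and 601 counts in E8, 188 at 12 h, 165 and 161 at 24 h, then 921 and 825 at 48 h. It was 4.28-fold below E8 at 24 h, the deepest point of any of the 10 genes at that time, and 5.37-fold above that at 48 h. The 48 h libraries lay just above the higher E8 library. Their log2 difference from E8, 0.34 ± 0.18 (SE), was 0.54 without E8 replicate 1 and 0.14 without E8 replicate 2.

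VEGFA, the growth factor of blood vessels, moved little. Its counts were 801 and 1046 in E8, 664 at 12 h, 723 and 727 at 24 h, then 858 and 853 at 48 h. At its lowest it held 71.9% of its E8 mean, and at 48 h its libraries lay between the 2 E8 libraries. The 24 h difference, -0.34 ± 0.16 (SE) on the log2 scale, was -0.53 without E8 replicate 1 and -0.15 without E8 replicate 2. The 48 h difference of -0.10 turned to 0.09 without E8 replicate 2.

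ADM encodes adrenomedullin, a peptide that widens blood vessels. Its counts were 315 and 417 in E8, 831 at 12 h, 952 and 624 at 24 h, then 380 and 418 at 48 h. Every 12 and 24 h library lay above every E8 and 48 h library, and the 48 h libraries overlapped E8. ADM was 2.27-fold above E8 at 12 h and 2.15-fold at 24 h, with a log2 difference at 24 h of 1.09 ± 0.20 (SE), while the other 2 secreted members were below E8.

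MIR210HG is a noncoding transcript whose gene holds the microRNA miR-210. It had 62.9 and 75.2 counts in E8, 22.5 at 12 h, 44.8 and 37.4 at 24 h, then 181 and 137 at 48 h. It went from 32.7% of E8 at 12 h through 59.5% at 24 h to 231% at 48 h, with no overlap between any 2 groups. Its 24 h mean was 1.82-fold that of the single 12 h library, which had 22.5 counts. The mature products are shown because the transcript is described here only as their host; the seed, bases 2 to 8, is in capitals, and miR-210 itself was not analysed here.
hsa-miR-210-3p: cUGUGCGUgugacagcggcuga
hsa-miR-210-5p: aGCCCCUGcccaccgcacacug

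Of 10 genes reported as targets of miR-210, RAD52, a DNA repair protein, was the 1 called, higher at 24 h (1.63-fold, limma adjusted p = 0.017; 0.1 without E8 replicate 1, and 0.1 and 0.074 without 24 h replicates 1 and 2). That 1 gene is 10% of the list, beside 8.66% of all tested genes called higher at 24 h. ANKRD37, a small ankyrin repeat protein, was the lowest of the 10 members. It had 18.3 and 19 counts in E8, 23.6 at 12 h, 20.8 and 21.5 at 24 h, then 41.0 and 44.6 at 48 h. No treated library lay below E8, and at 48 h it stood 2.29-fold above E8. At this depth the SE of its log2 difference was 0.38, more than that of any other member. The gene shares 35.2% of its exon bases with UFSP2 on the opposite strand, which stood at 332 in E8 and 342 at 48 h.

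Across the 10 genes the median log2 difference from E8 was -1.14 at 12 h, -0.81 at 24 h and 0.50 at 48 h, beside 0.02, 0.01 and 0.02 over all tested genes. From 24 h to 48 h it was 1.08, beside -0.003 over all tested genes. At an adjusted p under 0.05, limma called 6 members lower and 1 higher at 12 h, where 4.89% of all tested genes were called lower and 2.56% higher. At 24 h it called 5 lower and 1 higher (7.56% and 8.66% of all genes). At 48 h it called 0 lower and 4 higher than E8 (6.45% and 5.08%); edgeR and DESeq2 also called 0 lower, and 1 was lower at an unadjusted limma p under 0.05. Between 24 and 48 h it called 6 higher and 1 lower (0.349% and 0.856%). By position of the libraries alone, 8 members lay wholly below and 2 wholly above E8 at 12 h, as did 35.5% and 37.1% of all tested genes, against a single library. At 24 h 7 lay below and 2 above E8 (28.5% and 29.8%), and at 48 h 1 lay below and 7 above it (25.0% and 27.3%). From 24 to 48 h 9 lay higher and 1 lower (23.7% and 25.2%). The genes were chosen on these contrasts, so nothing is read from these counts.

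**Figure D3:**
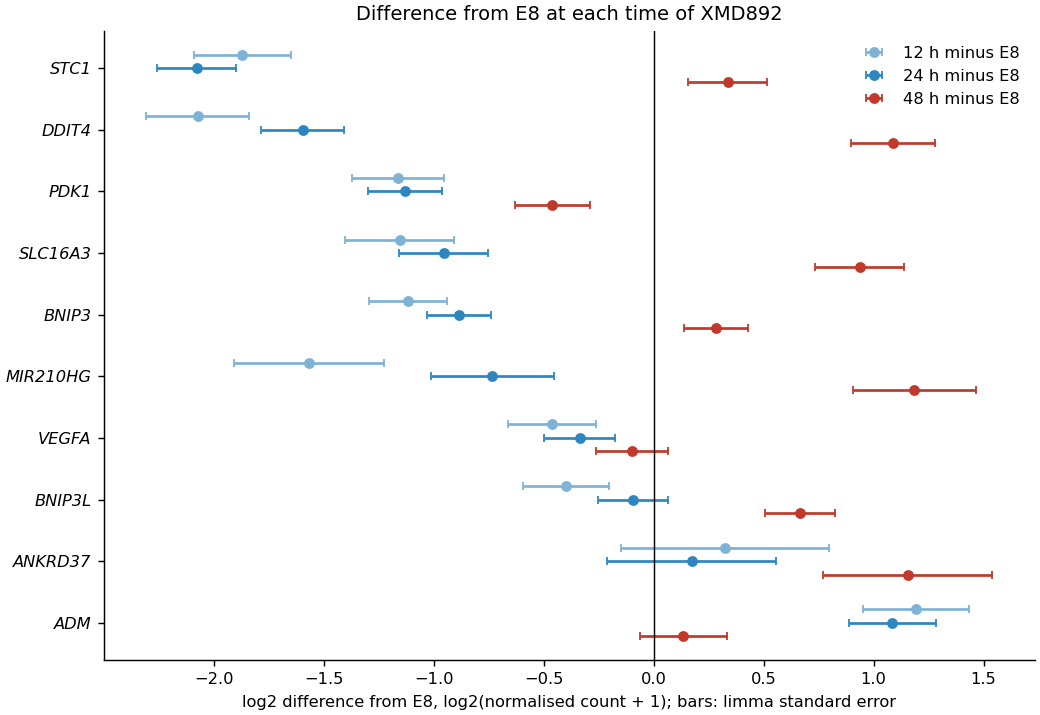
Log2 difference from E8 of each of the 10 genes after 12, 24 and 48 h of XMD892, on the log2(normalised count + 1) scale, with limma standard errors. STC1 and DDIT4 lie furthest left at 24 h, at -2.08 and -1.60, and ADM alone lies above 1 at 12 and 24 h.

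In the machinery of oxygen sensing EPAS1, HIF3A, EGLN3, ELOB and RBX1 were each called in at least 1 comparison, and HIF1A in none. Of 17 tested genes, 1 was lower and 1 higher at 12 h (each 5.88%), beside 4.89% and 2.56% of all tested genes. At 24 h 1 was lower (5.88%) and 2 were higher (11.8%), beside 7.56% and 8.66%. At 48 h 2 were lower and 2 higher (each 11.8%), beside 6.45% and 5.08%. EPAS1 alone was called, lower, between 24 and 48 h (5.88%, beside 0.856%). With so few genes, nothing is read from these counts. HIF1A, the alpha subunit of HIF-1, had 4807 and 3524 counts in E8, 4723 at 12 h, 3903 and 4407 at 24 h, then 3889 and 4263 at 48 h; all treated libraries lay within the E8 range. EPAS1, the alpha subunit of HIF-2, had 122 and 147 counts in E8, 320 at 12 h, 253 and 225 at 24 h, then 150 and 109 at 48 h. It rose 2.38-fold at 12 h (log2 difference 1.25 ± 0.26, limma adjusted p = 0.0047) and 1.78-fold at 24 h (0.83 ± 0.21, limma adjusted p = 0.012), then fell 1.85-fold between 24 and 48 h (limma adjusted p = 0.041). Its highest library was that of 12 h, and its 48 h libraries overlapped E8.

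The 24 h call of EPAS1 was lost without E8 replicate 1 (limma adjusted p = 0.051) or 24 h replicate 1 (0.098), and its later fall without any 1 of the 24 h or 48 h libraries (0.051 to 0.35). HIF3A, an alpha subunit with restraining isoforms, had 375 ± 12.4 counts (SD, n = 2) in E8. It was the gene of this list called lower at 12 h, where the single library had 199, 1.89-fold below E8. That call was lost in 1 alternative, with only the groups compared. HIF3A then stood at 236 ± 29 at 24 h and 213 ± 12.8 at 48 h, both below E8 (limma adjusted p = 0.017 and 0.0063). The 24 h call was lost without 24 h replicate 2 (0.19) and the 48 h call without 48 h replicate 1 (0.082). EGLN3, a prolyl hydroxylase that is itself a HIF target, fell at 48 h from 388 to 251, a call with a limma adjusted p of 0.029 that was lost without 48 h replicate 1 (0.23) or 2 (0.088). ELOB and RBX1 are subunits of the VHL ubiquitin ligase. ELOB was 1.41-fold higher at 24 h and 1.49-fold at 48 h (limma adjusted p = 0.027 and 0.016), and RBX1 was 1.42-fold higher at 48 h (0.027). The 24 h call of ELOB was lost without E8 replicate 1 (0.11) or either 24 h library (0.21 and 0.095), its 48 h call without 48 h replicate 1 (0.21), and that of RBX1 without either 48 h library (0.24 and 0.096). ARNT, ARNT2, VHL, EGLN1, EGLN2 and the asparaginyl hydroxylase HIF1AN did not pass in any comparison. Among them HIF1AN came nearest, at 2072 ± 246 in E8 and 2795 ± 46.7 at 48 h (limma adjusted p = 0.053).

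**Figure D4:**
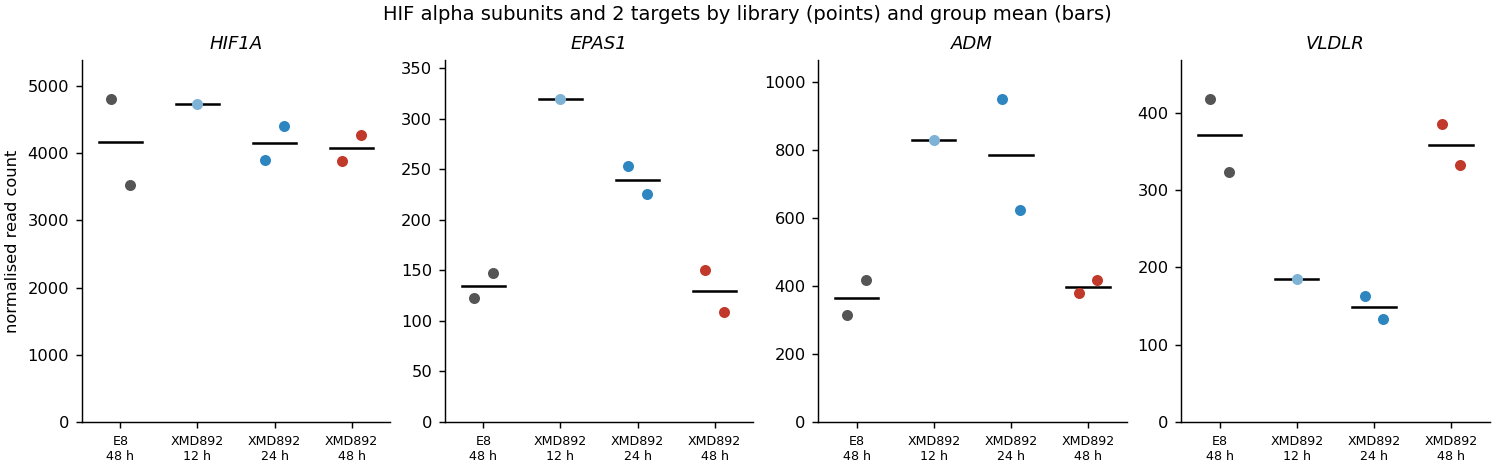
Normalised read count (linear axes from 0) of HIF1A, EPAS1, ADM and VLDLR by library (points) and group mean (bars). The means of EPAS1 and ADM are highest at 12 h, that of VLDLR is lowest at 24 h, and HIF1A stays between 3524 and 4807.

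Other genes that HIF is known to raise were called in both directions against E8, and only higher from 24 to 48 h. Most of them did not pass the test. Of 63 such genes, listed with earlier results of these data known, 61 had a row and 60 were tested. The counts of these genes are therefore not an independent test of the pattern. At 12 h 6 were lower (10%) and 1 higher, and at 24 h 8 were lower (13.3%) and 1 higher. At 48 h 5 were lower (8.33%) and 4 higher (6.67%) than in E8, beside 6.45% and 5.08% of all tested genes. Between 24 and 48 h 6 were higher (10%) and 0 lower, beside 0.349% and 0.856%. There edgeR and DESeq2 also called 0 lower, and 3 of the targets outside glycolysis were lower at an unadjusted limma p under 0.05. For 12 and 24 h the shares of all tested genes called in the same direction are those given above. The medians were -0.14 at 12 h, -0.15 at 24 h, 0.14 at 48 h and 0.18 between 24 and 48 h.

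These counts changed when single libraries were left out. The shares of all tested genes called changed as well, in most cases in the same direction. A drop in a count is therefore not by itself a trait of the HIF targets. Without E8 replicate 2, 12 were lower and 5 higher at 12 h, 13 were lower and 7 higher at 24 h and 12 were higher at 48 h, each of 60. The shares of all tested genes were then 7.74% and 10.3% at 12 h, 12.4% and 17.7% at 24 h, and 14.6% higher at 48 h, so the background rose too. At 24 h the count of lower genes was 3 and 5 on leaving out 24 h replicates 1 and 2. The gene called higher at 24 h, SLC2A1, was lost without either 24 h library. For higher genes at 48 h it was 1 without 48 h replicate 1, and for lower genes it was 3 and 2 without 48 h replicates 1 and 2. Between 24 and 48 h the count of higher genes was 15 without either E8 library, when 2.19% and 2.15% of all tested genes were higher. It was 2 and 4 without 24 h replicates 1 and 2, and 1 and 2 without 48 h replicates 1 and 2. For lower genes at 12 h, where the spread comes from the other groups, the count fell without any 1 of the 24 or 48 h libraries. There the share of all tested genes called lower fell without a 48 h library but rose without a 24 h library. At 12 h the count and the share thus did not always move together.

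**Figure D5:**
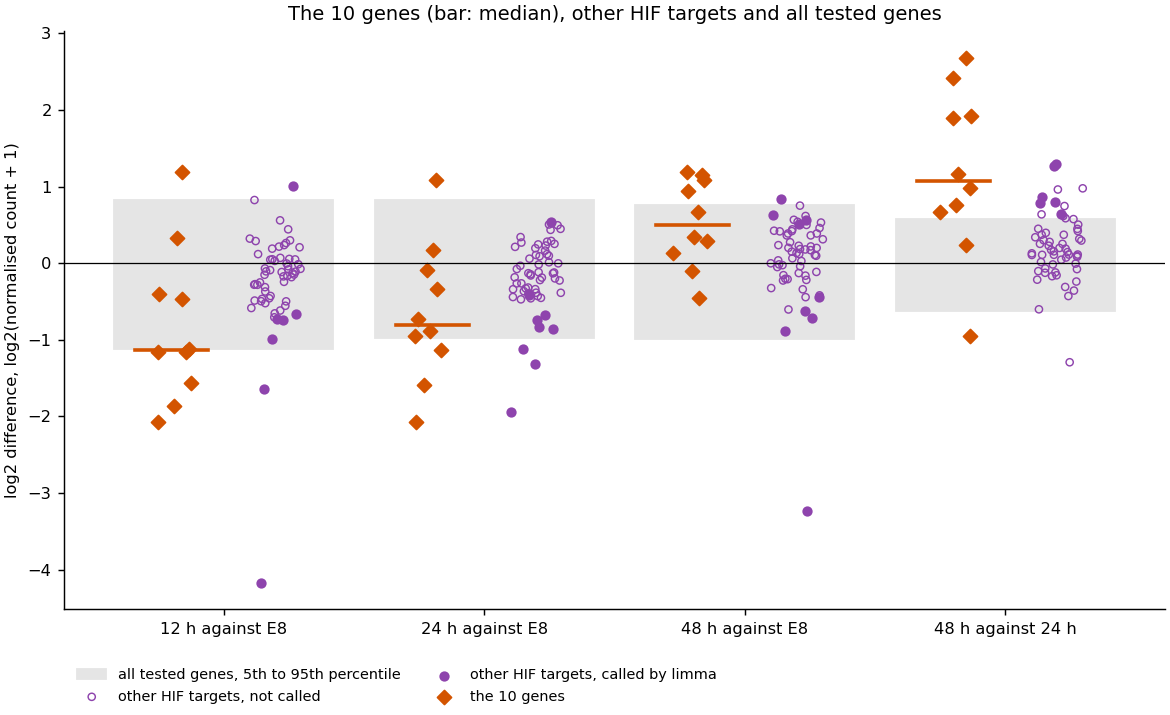
Log2 differences in the 4 comparisons for the 10 genes (diamonds, with their median as a bar) and 60 other HIF targets (circles, filled where limma called them), over the 5th to 95th percentile of all tested genes (grey). The members' median is -0.81 at 24 h and 1.08 between 24 and 48 h, where that of the other targets is -0.15 and 0.18.

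VLDLR and PPFIA4 were called lower at 24 h and higher from 24 to 48 h, in comparisons that share the 24 h libraries. VLDLR, a lipoprotein receptor, had 418 and 324 counts in E8, 185 at 12 h, 163 and 133 at 24 h, then 386 and 332 at 48 h. It fell 2.50-fold at 24 h (limma adjusted p = 0.00014) and rose 2.42-fold from there (limma adjusted p = 0.001), and its 48 h libraries overlapped E8. PPFIA4, a liprin, went from 183 ± 13.1 (SD, n = 2) in E8 down to 83.7 ± 0.615 at 24 h and rose to 208 ± 7.36 at 48 h (limma adjusted p = 0.0015 and 0.0019); the rise had an adjusted p of 0.052 without 48 h replicate 1. P4HA1, a collagen prolyl hydroxylase, was 1.69-fold lower at 24 h (limma adjusted p = 0.0029) and its rise after that did not pass (limma adjusted p = 0.056). KDM3A, a histone demethylase, rose 1.82-fold from 24 to 48 h (limma adjusted p = 0.011), a call lost without 24 h replicate 1 (0.13) or either 48 h library (0.19 and 0.066).

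Some HIF targets were below E8 at 48 h. BHLHE41, a repressor of clock genes, was low from 12 h on, with 34.9 and 38.0 counts in E8, 1.07 at 12 h, 6.25 and 12.2 at 24 h, then 4.32 and 1.98 at 48 h (limma adjusted p = 0.0026 at 12 h and 0.0027 at 48 h). At 24 h its adjusted p was 0.0496, a call lost in 7 alternatives, among them without any 1 of the E8 or 24 h libraries (0.065 to 0.33). Its relative BHLHE40 was 1.85-fold lower at 48 h (limma adjusted p = 0.0093; 0.11 without 48 h replicate 2). AK4, a mitochondrial adenylate kinase, was 1.66-fold lower at 48 h (limma adjusted p = 0.0023).

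Among glycolytic HIF targets SLC2A1, PKM, TPI1 and PFKFB3 rose at 48 h, and SLC2A3 fell. Of 19 tested, 1 was lower at 12 h (5.26%, beside 4.89% of all tested genes). At 24 h 1 was lower and 1 higher (each 5.26%, beside 7.56% and 8.66%). At 48 h 1 was lower (5.26%) and 4 higher (21.1%), beside 6.45% and 5.08%. Between 24 and 48 h 2 were higher (10.5%, beside 0.349%). SLC2A1, the glucose transporter GLUT1, had 4158 and 4617 counts in E8, 6457 at 12 h, 6584 and 6185 at 24 h, then 8656 and 7085 at 48 h. All its treated libraries lay above E8, by 1.46-fold at 24 h (limma adjusted p = 0.014) and 1.79-fold at 48 h (limma adjusted p = 0.00056); the 24 h call was lost without either 24 h library (0.16 and 0.056). SLC2A3, the glucose transporter GLUT3, went the other way, from 14898 in E8 to 10952 at 48 h (limma adjusted p = 0.048), a call lost in 8 of the alternatives, among them without E8 replicate 1 (0.081), either 24 h library (0.072 and 0.071) or either 48 h library (0.13 and 0.29). TPI1 was 1.47-fold and PFKFB3 1.43-fold higher at 48 h (limma adjusted p = 0.022 and 0.033). Both calls were lost without E8 replicate 1 (0.11 and 0.068) and without 48 h replicate 1 (0.26 and 0.35), and that of PFKFB3 also without 48 h replicate 2 (0.062). PKM, pyruvate kinase, was 1.55-fold higher at 48 h (limma adjusted p = 0.0079; 0.17 without 48 h replicate 1). PFKFB4, which sets the level of the glycolytic activator fructose-2,6-bisphosphate, rose 1.74-fold from 24 to 48 h (limma adjusted p = 0.034), a call lost without any 1 of those 4 libraries (0.058 to 0.54).

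Partners of the members were read from lists of their own. Of all tested genes, 4.89% were called lower and 2.56% higher at 12 h, and 7.56% and 8.66% at 24 h. At 48 h the shares were 6.45% and 5.08%, and between 24 and 48 h 0.856% and 0.349%. The partner lists are short, so nothing is read from their counts beside these shares. Of 14 tested partners of BNIP3 and BNIP3L in mitophagy, 1 was lower at 12 h, 1 was lower and 2 were higher at 24 h, and 1 was lower and 1 higher at 48 h. PINK1, the kinase that marks damaged mitochondria, had 451 and 835 counts in E8, 295 at 12 h, 437 and 448 at 24 h, then 360 and 374 at 48 h. It was 2.18-fold lower at 12 h and 1.75-fold at 48 h (limma adjusted p = 0.015 and 0.026); the 48 h call was lost without E8 replicate 2 (0.22) or either 48 h library (0.15 and 0.11). GABARAPL1, an autophagosome protein, fell 1.45-fold at 24 h (limma adjusted p = 0.022) and rose 1.53-fold from there (limma adjusted p = 0.048), but the first call was lost without either 24 h library (0.15 and 0.13) and the second without any 1 of the 24 or 48 h libraries (0.2 to 0.47). Its relative GABARAP went from 23.8 ± 2.13 (SD, n = 2) in E8 up to 73.0 ± 10.5 at 24 h and 73.9 ± 19 at 48 h (limma adjusted p = 0.0018 and 0.002; the latter 0.057 without 48 h replicate 2). SQSTM1, the receptor p62, was 1.59-fold higher at 24 h (limma adjusted p = 0.0065; 0.17 without 24 h replicate 1).

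Around pyruvate dehydrogenase, 1 of 11 tested genes was lower and 1 higher at 12 h and again at 24 h. PDK3, another kinase of the complex, fell from 546 ± 26.1 in E8 to 310 ± 16.9 at 24 h (limma adjusted p = 0.0027), and stood at 410 ± 17.3 at 48 h. MPC1, a subunit of the mitochondrial pyruvate carrier, was 2.02-fold higher at 24 h (limma adjusted p = 0.00065). PDK2 stood at 175 ± 3.38 in E8 and 163 ± 11.3 at 24 h and did not pass, and PDK4 had a mean under 10 and was not tested. Of 7 tested genes on a list for monocarboxylate transport, 1 was lower (LDHA) and 1 higher (BSG) at 24 h (limma adjusted p = 0.049 and 0.047). LDHA is also the 1 glycolytic HIF target counted above as lower at 24 h. The call of LDHA was lost in 9 alternatives and that of BSG in 11, in both cases without E8 replicate 1 (0.08 and 0.36) and without any 1 of the 24 and 48 h libraries (0.064 to 0.27 and 0.063 to 0.23). SLC16A1 (MCT1), the close relative of SLC16A3, had 8859 and 7901 counts in E8 and 8964 and 9345 at 48 h.

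Among receptors and relatives of VEGF, 2 of 7 tested were lower at 12 h and 2 at 24 h, and at 48 h 2 were lower and 1 higher. The higher one, the receptor FLT1 (1.36-fold, limma adjusted p = 0.048), was lost in 11 alternatives, among them edgeR (0.053) and leaving out E8 replicate 2 (0.088), either 24 h library (0.082) or either 48 h library (0.21 and 0.23). KDR, the main VEGF receptor, fell 2.43-fold at 24 h and stood 2.38-fold below E8 at 48 h (limma adjusted p = 1.6e-05 and 1.5e-05). It had 2743 and 2527 counts in E8, 1160 at 12 h, 1050 and 1122 at 24 h, then 1258 and 960 at 48 h. NRP2, a co-receptor, fell between 24 and 48 h, 2.11-fold (limma adjusted p = 0.00047). Of 5 tested genes around adrenomedullin, 2 were lower at 24 and at 48 h. RAMP2, the subunit that gives the calcitonin receptor-like receptor its affinity for adrenomedullin, fell from 74.2 ± 4.91 to 22.4 ± 6.58 at 24 h and 18.9 ± 8.45 at 48 h (limma adjusted p = 0.0047 and 0.0016); CALCRL, that receptor, had a mean under 10.

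Of 13 tested genes of the mTORC1 brake and complex, 1 was lower (DEPTOR) and 1 higher (AKT1S1) at 24 h. Each is 7.69% of the list, near the 7.56% and 8.66% of all tested genes. The call of DEPTOR was lost in 2 alternatives, without E8 replicate 1 and without 24 h replicate 1. DDIT4L, the relative of DDIT4, had 196 and 192 counts in E8, 170 and 169 at 24 h, then 178 and 166 at 48 h.

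Outside the 10 genes, 11358 had a mean of 100 or more, and the 8 whose profiles lay nearest to the median profile of the 10 were HEPH, H2AFY2, BCL6, RAB25, ID2, PFKFB4, PCDH18 and GPM6A. Nearness was the root mean square distance between log2 profiles over the 7 libraries, each centred on its own mean. It was 0.12 for HEPH, a copper-dependent iron oxidase, and 0.22 for GPM6A, a neuronal membrane glycoprotein. HEPH had 1318 and 1486 counts in E8, 732 at 12 h, 877 and 923 at 24 h, then 1945 and 1649 at 48 h. ID2, an inhibitor of bHLH transcription factors, had 1073 and 1020 in E8, 667 at 12 h, 647 and 825 at 24 h, then 1387 and 1539 at 48 h. Among the members themselves the distance to their median ran from 0.15 (BNIP3) to 1.04 (ADM), so HEPH lay nearer to it than any member. These 8 genes were found by this likeness, which is therefore not tested.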

How the data were processed

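The values are the authors' deposited signal per gene symbol, normalised read counts in which gene reads had been divided by 1 factor per library. In the submitters' processing notes the tools are DESeq2 1.26.0, featureCounts 1.5.3, STAR and Trimmomatic 0.36, and the build hg38, without roles; the annotation and strand setting are not given in the sources used here. All values (100%) were whole multiples, to within 0.1, of what 1 read is worth in their library, so reads were recovered. A further 2 columns, named for XMD892 at 12 h, match no sample and were not analysed here. Symbols were matched to GENCODE 29 (97.7%).

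Genes with a mean of 10 or more (16351 of 19775) were tested with limma 3.58.1 (R 4.3.3) on log2(value + 1), 1 mean per group over all 7 libraries, with a trended prior variance (3 residual degrees of freedom, prior 18.4) and Benjamini-Hochberg adjustment over all tested genes. The 12 h group has 1 library and borrows the spread of the others, as does any group left with 1. On simulated data of 16351 genes, the calls recovered 50% of 2-fold changes at 12 h, 64% at 24 h and 71% at 48 h. Of 1.5-fold changes they recovered 3%, 25% and 26%. Between 24 and 48 h they recovered 65% of 2-fold and 24% of 1.5-fold changes. A gene that was not called may therefore still have changed. Folds are ratios of group means. The 10 members and all lists were chosen with earlier results of these data known, and 1 listed gene is not reported here. Named genes are the members, the main oxygen sensors, up to 4 called genes per list and comparison and the 8 nearest profiles. UFSP2, PDK2, SLC16A1, DDIT4L, CALCRL and PDK4 were added as neighbours or relatives of members. Libraries with the same replicate number did not deviate together from their group means (correlations of deviations -0.071 to -0.035). Whether they shared a culture or batch cannot be told from this. Alternatives were other pseudocounts, filters and scalings, edgeR 4.0.16 and DESeq2 1.42.0 on recovered reads, robust moderation, fewer groups per fit, a replicate block, GC correction and leaving out each library.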

Additional observations from a re-analysis of the deposited data

Results flagged for a closer look

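Among the genes of the lists, COL1A1 was called in opposite directions at 24 and 48 h, and its change between these times was called as well. COL1A1, a chain of type I collagen on the fibroblast list, differed by 0.70 at 24 h and by -0.64 at 48 h (48 h against 24 h, limma adjusted p = 7.5e-05), with 481 and 589 counts in E8, 1534 at 12 h, 882 and 851 at 24 h, then 361 and 324 at 48 h. Its 24 h call had an adjusted p of 0.067 without 24 h replicate 1, and its 48 h call of 0.063 and 0.15 without 48 h replicates 1 and 2. Of the other fibroblast markers, PDGFRB was called lower at both times. Its 48 h call was lost in 3 alternatives, among them DESeq2 (DESeq2 adjusted p = 0.052). COL1A2 passed at neither time, at 1533 ± 205 (SD, n = 2) in E8 and 1644 ± 25.1 at 24 h.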

How the results depend on the processing

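The median log2 difference of the 10 genes kept its direction in every alternative run. Leaving out 1 library at a time it ranged from -1.14 to -0.96 at 12 h, from -0.89 to -0.59 at 24 h, from 0.43 to 0.55 at 48 h and from 1.05 to 1.10 between 24 and 48 h. With a filter at a mean of 50, which leaves out ANKRD37, the 48 h median was 0.34. Counts of the other HIF targets moved more, and the shares of all tested genes called moved too. Leaving out 1 library at a time, 3 to 12 were lower at 12 h and 3 to 13 at 24 h, while 1 to 12 were higher at 48 h and 1 to 15 between 24 and 48 h. With the GC trend removed 11 of 60 were lower at 12 h and 11 were higher at 48 h, beside 7.71% and 11.9% of all tested genes. In that setting 10 were higher between 24 and 48 h, beside 1.05%. With only the groups compared in the fit, 3 were lower at 12 h and 14 were higher between 24 and 48 h (3.65% and 2.24% of all). With the replicate numbers as a block, 3 were lower at 12 h and 7 at 24 h (4.6% and 7.42% of all). The causes were not tested. No called gene of the lists, and no member that was called, changed sign in any alternative. Reads per library limit ANKRD37 and BHLHE41 most.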

Other observations

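DDIT4 also answers to amino acid stress through ATF4 and to glucocorticoids, and genes of both kinds were listed. Of 10 tested ATF4 stress genes, 2 were lower at 12 h, 2 at 24 h, 3 at 48 h and 2 between 24 and 48 h. These are 20%, 20%, 30% and 20%, beside 4.89%, 7.56%, 6.45% and 0.856% of all tested genes called lower. In the glucocorticoid list below 1 gene is 14.3%, beside 4.89% of all tested genes lower at 12 h and 8.66% higher at 24 h. The part of either list in the levels of DDIT4 was not tested. SLC7A11, the cystine transporter, had 385 ± 76.8 counts (SD, n = 2) in E8, 138 ± 50.9 at 24 h and 60.8 ± 8.04 at 48 h, a fall against E8 at limma adjusted p = 3e-07; its call between 24 and 48 h was lost without 24 h replicate 1 (0.45) or either 48 h library (0.29 and 0.05). CHAC1, which breaks down glutathione, was 3.38-fold lower at 12 h and 3.18-fold lower at 48 h (limma adjusted p = 0.00068 and 7.3e-05). Of 7 tested glucocorticoid response genes, 1 was lower at 12 h, TSC22D3 (1.92-fold, limma adjusted p = 0.021), and 1 was higher at 24 h, PER1 (1.46-fold, limma adjusted p = 0.023; 0.1 without E8 replicate 1 and 0.13 without either 24 h library).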
